A study of Homo sapiens with 6 samples.

Results

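Interferon-stimulated genes and the genes of interferon signalling were examined as a set of 55 named genes, matched by exact symbol to the annotation of a microarray. Of these, 54 were measured among the 18265 genes of the array, and 1 listed gene was not analysed here. For each gene the probe set with the highest mean over the 6 arrays stood for the gene, and its other probe sets served as a check. The values come from A549, a widely used human lung adenocarcinoma cell line, after lentiviral delivery of a short hairpin RNA. A short hairpin RNA is processed in the cell into a small RNA that directs the silencing machinery to a matching transcript. One group, shTIGD1 (3 arrays), had a hairpin directed at TIGD1, which encodes a protein of the tigger family of domesticated transposases, and the other, shControl (3 arrays), had a control hairpin. The labels give no time after transduction, no selection step and no second hairpin against TIGD1, and they do not say that the arrays of a group came from separate cultures. Each p-value is thus set against variation among these samples alone, and that variation may be technical.

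Type I interferons are secreted proteins that bind a receptor made of IFNAR1 and IFNAR2. The receptor's kinases JAK1 and TYK2 then activate STAT factors that enter the nucleus with IRF9 and bind a short promoter element, the interferon-stimulated response element. The genes switched on in this way restrict viruses at entry, RNA copying, translation and release, and many also have a basal level without added interferon.

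The sequences of the hairpins are shown because they define the groups.
shTIGD1: ctgctaacacaacatccat
shNC, the control: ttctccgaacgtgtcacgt
The stretches below are the 150 bases before the 5′-most listed start of 10 interferon genes, from RefSeq on GRCh38.p14, written 5′ to 3′ on the strand of the gene. They are shown because some genes that were higher and some that were lower carry the same short motif, and OAS3 is added as a gene that did not pass the test. Capitals mark every match, wholly in the stretch, to GAAA followed by any 2 bases and GAAA again, the core of the response element, on either strand (TTTC, any 2 bases and TTTC where it lies on the other). This is called the paired GAAA motif below. In IRF1 alone they mark TTCNNNGAA instead, a palindrome to which STAT dimers bind.
IFI27, plus strand, chr14:94110586-94110735: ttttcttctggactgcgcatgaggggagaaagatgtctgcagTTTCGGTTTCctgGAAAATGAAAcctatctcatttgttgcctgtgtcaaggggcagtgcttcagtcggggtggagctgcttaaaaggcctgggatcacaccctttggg
BST2, minus strand, chr19:17405631-17405780: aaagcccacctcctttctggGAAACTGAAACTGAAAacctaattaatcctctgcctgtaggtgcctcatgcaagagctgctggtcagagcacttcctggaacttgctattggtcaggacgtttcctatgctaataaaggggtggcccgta
IFITM1, plus strand, chr11:313890-314039: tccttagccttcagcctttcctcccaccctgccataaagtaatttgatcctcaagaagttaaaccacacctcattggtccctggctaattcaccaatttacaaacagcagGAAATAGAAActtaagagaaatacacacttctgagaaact
IFITM3, minus strand, chr11:320861-321010: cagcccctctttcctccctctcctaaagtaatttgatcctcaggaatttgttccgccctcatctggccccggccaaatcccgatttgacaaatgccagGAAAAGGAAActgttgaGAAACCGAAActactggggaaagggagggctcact
ISG20, plus strand, chr15:88638866-88639015: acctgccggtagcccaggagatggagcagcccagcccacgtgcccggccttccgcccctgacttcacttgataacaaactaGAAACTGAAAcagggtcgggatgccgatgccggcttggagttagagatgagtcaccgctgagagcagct
IFIT3, plus strand, chr10:89327847-89327996: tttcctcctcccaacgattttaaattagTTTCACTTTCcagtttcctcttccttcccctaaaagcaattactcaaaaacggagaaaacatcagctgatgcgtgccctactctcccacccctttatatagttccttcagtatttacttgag
IFIT1, plus strand, chr10:89392473-89392622: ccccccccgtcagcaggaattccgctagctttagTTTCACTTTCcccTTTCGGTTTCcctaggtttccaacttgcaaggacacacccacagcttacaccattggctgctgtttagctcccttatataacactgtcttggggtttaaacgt
OAS3, plus strand, chr12:112938324-112938473: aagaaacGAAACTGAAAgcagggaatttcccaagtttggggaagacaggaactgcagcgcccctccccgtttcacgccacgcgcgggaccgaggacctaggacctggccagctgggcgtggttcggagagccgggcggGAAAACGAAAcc
LGALS3BP, minus strand, chr17:78979924-78980073: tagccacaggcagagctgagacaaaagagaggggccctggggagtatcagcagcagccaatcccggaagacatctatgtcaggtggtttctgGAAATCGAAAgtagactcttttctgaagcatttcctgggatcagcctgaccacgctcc
IRF1, minus strand, chr5:132490774-132490923: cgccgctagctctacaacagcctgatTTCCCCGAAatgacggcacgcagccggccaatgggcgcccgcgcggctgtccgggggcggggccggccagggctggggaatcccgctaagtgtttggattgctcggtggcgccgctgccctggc
A further match of the paired GAAA motif in IFITM1 begins at position -6 and runs past the start. Another in IFIT3 begins at position -156, before the printed stretch, and ends within it. A match is a run of letters and was not tested as a binding site.

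TIGD1 itself did not pass the test, so that directions below are those of the labels. Its only probe set had log2 signals of 6.88, 6.84 and 6.86 on the shTIGD1 arrays, against 6.96, 6.93 and 6.85 on the shControl arrays. The log2 difference was -0.06 (SE 0.04, 95% interval -0.16 to 0.04, limma adjusted p = 0.389, and p = 0.3 in a two-sided exact permutation test that cannot go below 0.1). The medians of the arrays lay between 6.27 and 6.28, and pairs of arrays correlated across genes at 0.996 to 0.999. The epithelial keratins KRT8 and KRT18 had means of 13.51 and 14.15 on the shTIGD1 arrays and of 13.52 and 14.19 on the shControl arrays. Of 14 marker genes of immune cells 0 were higher and 1 lower by limma, and their summed log2 signal was 66.9 to 67.3 on the shTIGD1 arrays and 67.3 to 68.8 on the shControl arrays. Of 5 endothelial markers 0 passed, and of 7 fibroblast markers 1 was lower. The epithelial genes EPCAM and CDH1 were higher, by 0.87 and 0.66, and the part of any of these in the changes below was not tested.

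The interferon genes moved in both directions. By limma with Benjamini-Hochberg adjustment over all genes, at an adjusted p of 0.05, 9 of 54 were higher on the shTIGD1 arrays (16.7%, where 9.79% of all genes were higher) and 14 were lower (25.9%, against 14% of all genes). Together 23 passed (42.6%, against 23.8% of all genes), and 31 did not. The members were brighter than genes in general, with a median log2 signal of 7.20 against 6.91. In a fit of only the genes with a mean of at least 6 in a group, 10 of 39 members were higher and 13 lower. Of all genes in that fit, 20.4% were higher and 28.7% lower, so the excess over all genes was smaller there. The groups did not overlap for 31 of the 54 (57.4%, against 42.3% of all genes). The median log2 change of the 54 was -0.0037, against -0.04 over all genes, and their median absolute change was 0.15, against 0.10. A change of at least 1.5-fold among those past the test was found in 4 members that were higher (7.41%, against 0.794% of all genes) and in 0 that were lower (0.312% of all genes). The members were chosen with earlier results of these data known, so none of these shares tests whether the set differs from other genes. Without 1 array at a time, 14 of the 23 passed in all 6 fits, 6 of them higher and 8 lower. The number of lower members was 9 without shTIGD1 replicate 1, 9 without shTIGD1 replicate 2, 8 without shControl replicate 1 and 9 without shControl replicate 3, fits in which the share of all genes lower also dropped, to between 8.57% and 9.95%. With 6 to 9 members higher across the 6 fits, 6 were left without shTIGD1 replicate 1 or replicate 3, where 6.44% and 6.50% of all genes were higher.

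**Figure D1:**
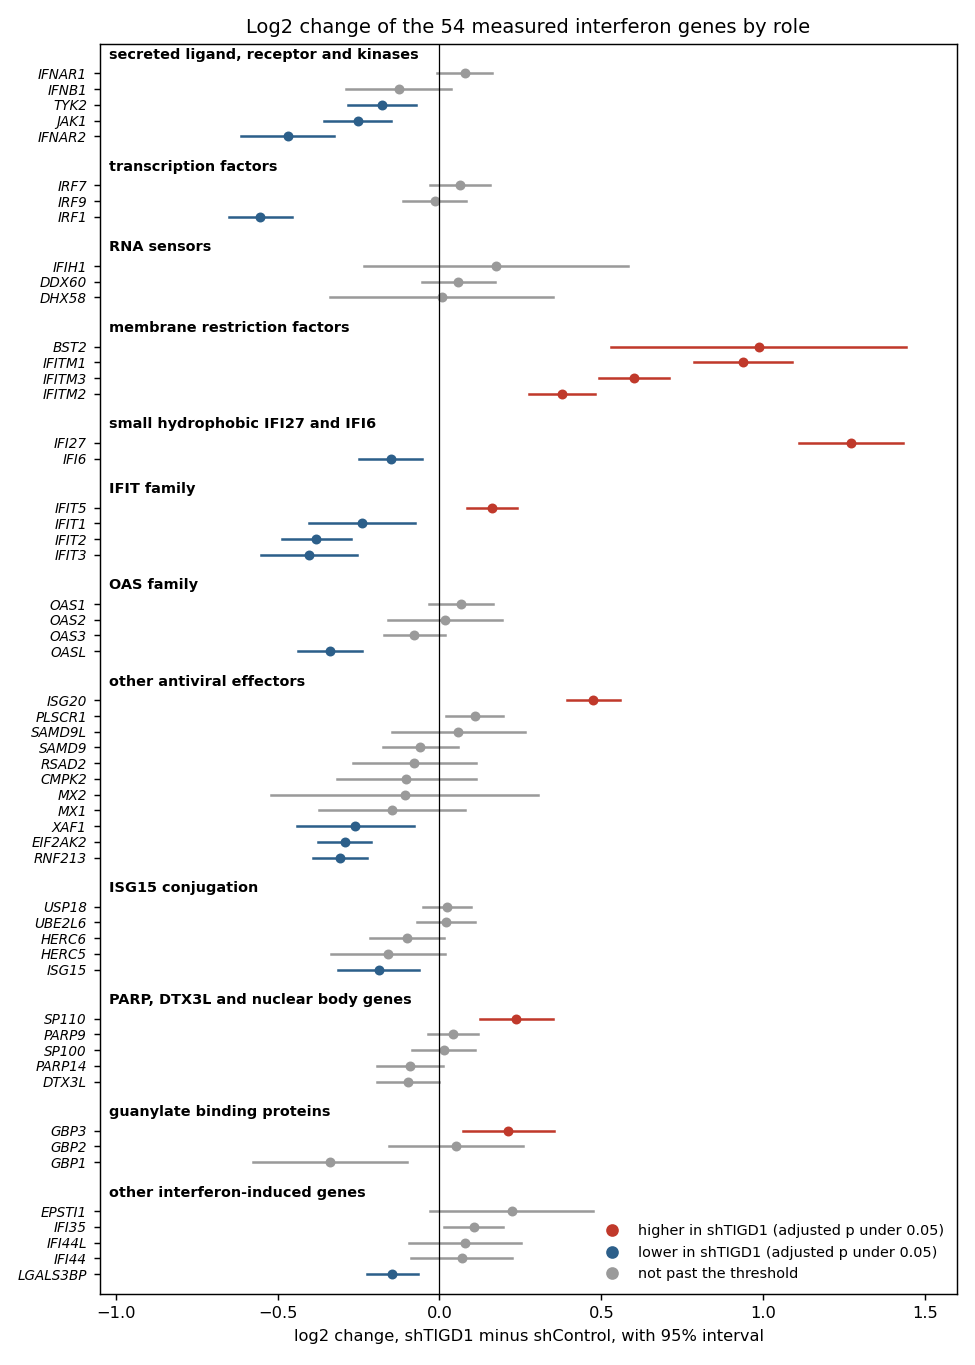
Log2 change of each of the 54 measured interferon genes, shTIGD1 minus shControl, with its 95% interval from limma (n = 3 arrays per group), grouped by role; colours mark genes past an adjusted p of 0.05. The 4 membrane restriction factors lie to the right of 0, and 3 of 4 IFIT genes to the left.

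The split between higher and lower depended on the scaling of the arrays. Levelling the arrays on bacterial hybridization controls added 0.17 to the log2 change of every gene, and levelling on poly-A spike-in controls added 0.33. Under the first, 23 of the 54 members were higher and 6 lower, where 37.4% of all genes were higher and 2.58% lower. Under the second 37 were higher and 1 lower, where 76.5% of all genes were higher and 0.652% lower, so that the members' counts largely follow the shift common to all genes. The 9 higher members stayed higher under both. IRF1 alone of the 14 lower members passed as lower under both, while IFNAR2, IFIT2, IFIT3, OASL and RNF213 did so under hybridization control scaling. Of the same 14, TYK2, IFI6 and LGALS3BP passed as higher under poly-A control scaling. Changes below are given as deposited, and a fall smaller than 0.33 is positive under poly-A control scaling.

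Upstream in the pathway, 3 of 5 genes for the ligand, receptor and kinases fell and 0 rose, where 14% of all genes fell and 9.79% rose. Role counts below are of few genes and stand against the same shares. IFNB1, which encodes interferon beta, was near background, with a mean log2 signal of 3.60 on the shTIGD1 arrays and 3.72 on the shControl arrays. Here and below, a mean under 5 is called near background, since 19 marker genes of immune and endothelial cells had a median of 4.85. Their 95th percentile was 6.83, so that a signal above 5, such as those of BST2, IFIH1, IFIT2 or GBP1, does not by itself show expression. For IFIT3 and OASL the shTIGD1 means, 6.78 and 6.57, lay below that percentile. Their shControl means, 7.19 and 6.90, lay above it. The shControl mean of IFI27, 6.23, also lay below that percentile, and the TIGD1 means of 6.86 and 6.91 lay just above it. IFNAR2, the chain that binds interferon with high affinity, had log2 signals of 8.97, 8.78 and 8.98 on the shTIGD1 arrays, against 9.35, 9.40 and 9.39 on the shControl arrays. All 3 shTIGD1 values lay below all 3 shControl values, a change of -0.47 (SE 0.06, limma adjusted p = 0.00347). IFNAR1, the other chain, read 8.15, 8.18 and 8.11 on the shTIGD1 arrays, against 8.05, 8.09 and 8.06 on the shControl arrays. It did not pass (0.08, adjusted p = 0.162), and its 95% interval of -0.01 to 0.16 lay above that of IFNAR2, -0.61 to -0.32; the difference between the chains was not tested. The kinases JAK1 and TYK2 fell by 0.25 and 0.18 (limma adjusted p = 0.00844 and 0.0312), and TYK2 passed in only 1 of the 6 fits without 1 array. Under poly-A control scaling both kinases turned to positive changes, 0.08 for JAK1 and 0.16 for TYK2. TYK2 passed there as higher (limma adjusted p = 0.0309), and JAK1 did not pass (limma adjusted p = 0.163).

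Of the 3 measured transcription factors, IRF1 fell. IRF1, which binds interferon response elements and is itself an early target of interferon gamma, read 8.75, 8.67 and 8.69 on the shTIGD1 arrays and 9.22, 9.31 and 9.25 on the shControl arrays. The gap between the groups was several times the spread within either, and the change was -0.55 (SE 0.04, limma adjusted p = 0.000645). It was the largest fall among the 54 genes. IRF9, the DNA-binding partner of the activated STAT factors, had means of 9.36 ± 0.05 on the shTIGD1 arrays and 9.38 ± 0.04 on the shControl arrays (SD, n = 3 each), a difference of -0.01 that did not pass. IRF7, which amplifies the response by driving interferon genes, had means of 6.76 ± 0.04 and 6.69 ± 0.03 in the same order (0.06, limma adjusted p = 0.29).

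The cytosolic RNA sensors did not pass. IFIH1, which encodes the double-stranded RNA sensor MDA5, had the largest difference of the 3. It read 5.80, 5.48 and 5.75 on the shTIGD1 arrays, against 5.27, 5.88 and 5.37 on the shControl arrays, so that the groups overlapped. Its 95% interval of -0.23 to 0.58 leaves changes in either direction possible (0.17, limma adjusted p = 0.509). The helicase gene DDX60 changed by 0.06, and DHX58, which encodes LGP2, was near background in both groups.

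The largest rises were in IFI27 and in genes whose products act at cell membranes. IFI27, a small hydrophobic protein, read 7.39, 7.55 and 7.55 on the shTIGD1 arrays, against 6.27, 6.12 and 6.29 on the shControl arrays. The groups were more than 1 log2 unit apart, a 2.41-fold difference (1.27, SE 0.07, limma adjusted p = 0.000268). That fold takes the shControl signal as measured, although its mean of 6.23 does not by itself show expression. A second IFI27 probe set changed by 0.69. IFI6, of the same protein family, went the other way by 0.15 (adjusted p = 0.0397), a call that ended in each of the 6 fits without 1 array and turned positive under both control scalings. Under poly-A control scaling IFI6 passed as higher (0.18, limma adjusted p = 0.0109).

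BST2, or tetherin, which holds budding virus particles at the cell surface, read 5.95, 5.66 and 5.70 on the shTIGD1 arrays and 5.22, 4.51 and 4.63 on the shControl arrays. The shControl mean was near background, so the rise of at least 1.62-fold is a lower bound, computed with each shControl value set to no less than 5 (measured change 0.99, SE 0.19, limma adjusted p = 0.0134). With shControl replicate 1, the highest of its group, left out, the change was 1.2.

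The 3 IFITM genes, whose products block the fusion of viruses with cell membranes, rose together and are neighbours on chromosome 11. IFITM1 read 9.02, 9.01 and 9.13 on the shTIGD1 arrays, against 8.17, 8.18 and 7.99 on the shControl arrays (0.94, 1.92-fold, limma adjusted p = 0.000515). IFITM3 read 9.50, 9.53 and 9.55 on the shTIGD1 arrays, against 8.98, 8.95 and 8.85 on the shControl arrays (0.60, 1.52-fold, adjusted p = 0.000701). IFITM2 read 12.46, 12.39 and 12.49 on the shTIGD1 arrays, against 12.12, 12.03 and 12.05 on the shControl arrays (0.38, 1.30-fold, adjusted p = 0.00232). In none of the 3 did the groups overlap. The brightest probe set of each carries the suffix _x_at, by which the manufacturer marks probes that may match other sequences, and the 3 transcripts are close relatives. A further IFITM1 probe set without that suffix changed by 0.92, while both IFITM2 probe sets and the only IFITM3 probe set carry it. The suffix is also on the brightest probe sets of IFI27, IFNAR1, IFNAR2, IFIT3, OASL, EIF2AK2, PLSCR1 and GBP1, so that 11 of the 54 genes have it. IFIT3 and OASL have no other probe set. How much of any gene's signal came from another was not tested.

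**Figure D2:**
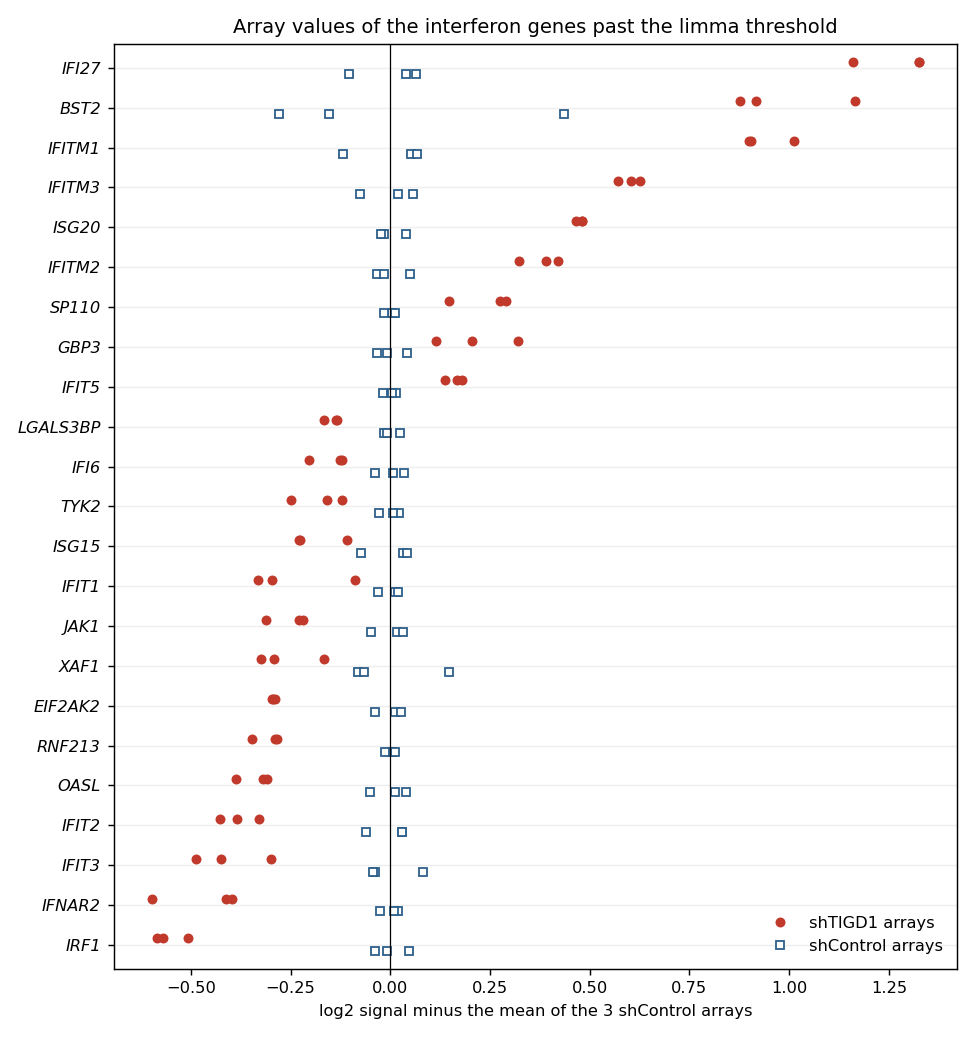
Log2 signal on each array minus the mean of the 3 shControl arrays, for the 23 interferon genes past the limma threshold, ordered by change; filled circles are shTIGD1 arrays and open squares shControl arrays. The groups are separate for each of the 23 genes, and BST2 shows the widest spread among its shControl arrays.

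ISG20, a 3′ exonuclease that degrades RNA, was the other antiviral effector that rose. It read 9.91, 9.90 and 9.91 on the shTIGD1 arrays, against 9.47, 9.42 and 9.41 on the shControl arrays (0.48, 1.39-fold, limma adjusted p = 0.000629). The shTIGD1 values were almost identical, with an SD of 0.01. Of the 11 effectors in its group, 1 rose and 3 fell, and the 1 that rose is about the share of all genes (9.79%). RNF213, a large ubiquitin ligase, read 10.44, 10.38 and 10.44 on the shTIGD1 arrays, against 10.73, 10.71 and 10.74 on the shControl arrays (-0.31, limma adjusted p = 0.00232). EIF2AK2, the kinase PKR that stops translation when it binds double-stranded RNA, fell by 0.29 (adjusted p = 0.00258), with values of 8.20, 8.20 and 8.21 on the shTIGD1 arrays and 8.51, 8.52 and 8.46 on the shControl arrays. Both changes were positive under poly-A control scaling, at 0.026 for RNF213 and 0.04 for EIF2AK2. XAF1, an antagonist of the apoptosis inhibitor XIAP, passed narrowly (-0.26, adjusted p = 0.0499), was near background on the shTIGD1 arrays and passed in none of the 6 fits without 1 array. The GTPase gene MX1 changed by -0.15 and did not pass (adjusted p = 0.311). MX2, RSAD2, CMPK2 and SAMD9L were near background in both groups.

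The IFIT family split. Some products of this family bind viral RNA and block its translation. The genes lie in 1 cluster on chromosome 10, with IFIT1B (0.03, not past the test) among them. IFIT3 read 6.70, 6.89 and 6.76 on the shTIGD1 arrays, against 7.15, 7.27 and 7.14 on the shControl arrays (-0.40, limma adjusted p = 0.00605). IFIT2 read 6.25, 6.19 and 6.15 on the shTIGD1 arrays, against 6.61, 6.61 and 6.52 on the shControl arrays (-0.38, adjusted p = 0.00261). IFIT1 fell by 0.24 (adjusted p = 0.0473), with shTIGD1 replicate 3 at 7.15 close to the lowest shControl value of 7.21, and it passed in 1 of the 6 fits without 1 array. IFIT5, at the end of the run, rose by 0.16 (adjusted p = 0.0155), with 7.92, 7.88 and 7.91 on the shTIGD1 arrays and 7.72, 7.75 and 7.74 on the shControl arrays, and passed in 3 of those 6 fits. A second IFIT5 probe set, with means of 7.20 on the shTIGD1 arrays and 7.16 on the shControl arrays, did not pass (0.04, adjusted p = 0.591 over all probe sets), so the rise of IFIT5 rests on 1 probe set. Under poly-A control scaling the change of IFIT1 turned to 0.09, while IFIT2 and IFIT3 stayed below 0 without passing (-0.05 and -0.07).

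The OAS genes also differed among themselves. OAS1, OAS2 and OAS3, neighbours on chromosome 12, make the synthetases whose short oligoadenylates activate an RNA-degrading enzyme, and none of the 3 passed (0.07, 0.02 and -0.08). Their 95% intervals all lay between -0.17 and 0.19. OASL, a related gene elsewhere on the chromosome whose product lacks the synthetase activity, fell by 0.34 (limma adjusted p = 0.00304). It read 6.58, 6.59 and 6.52 on the shTIGD1 arrays, against 6.85, 6.91 and 6.94 on the shControl arrays, with no overlap.

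**Figure D3:**
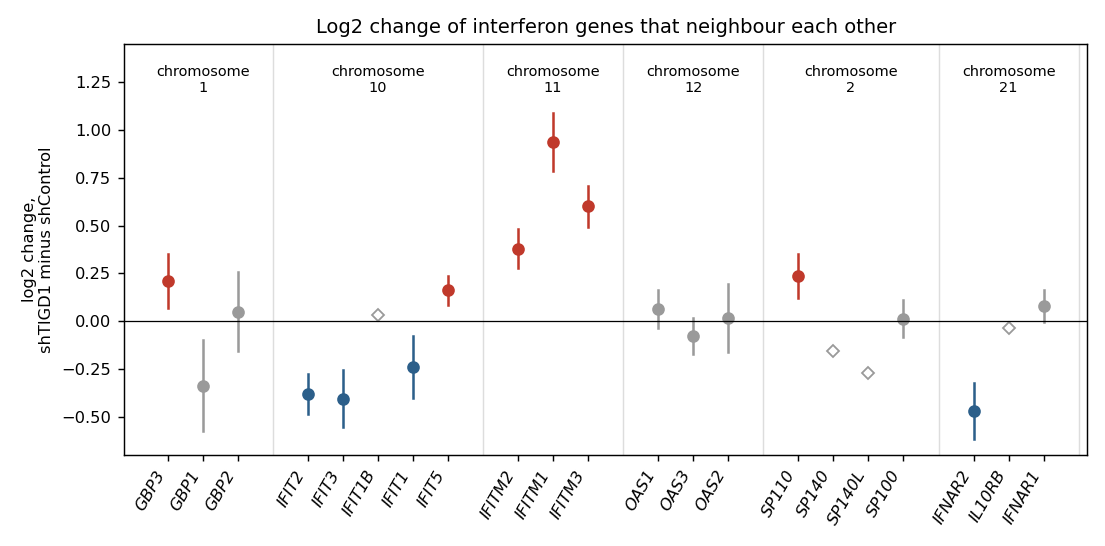
Log2 change, shTIGD1 minus shControl, of interferon genes that lie next to each other, in chromosomal order within each panel; circles are members with their 95% interval, coloured where they passed the limma test (red higher, blue lower), and open diamonds are other genes in between. All 3 IFITM genes were higher, IFIT2, IFIT3 and IFIT1 were lower with IFIT5 higher, and OAS1, OAS3 and OAS2 lay near 0.

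In the ISG15 system, which links a ubiquitin-like protein to other proteins, 1 of 5 genes passed. ISG15 itself read 7.65, 7.77 and 7.66 on the shTIGD1 arrays, against 7.91, 7.81 and 7.92 on the shControl arrays (-0.19, limma adjusted p = 0.0444). It passed in 2 of the 6 fits without 1 array and turned to 0.15 under poly-A control scaling. The conjugating enzyme UBE2L6 (0.02), the ligases HERC5 (-0.16) and HERC6 (-0.10) and the deconjugating protease USP18 (0.02) did not pass.

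Of the remaining 13 genes, 2 rose and 1 fell. SP110, a nuclear body protein, read 7.44, 7.30 and 7.42 on the shTIGD1 arrays, against 7.15, 7.16 and 7.13 on the shControl arrays (0.24, limma adjusted p = 0.0147). It passed in 4 of the 6 fits without 1 array. The nearby SP100 changed by 0.01. Among the guanylate binding proteins, GTPases that attack the membranes around intracellular pathogens, GBP3 rose by 0.21 (adjusted p = 0.0432) but passed in 1 of the 6 fits without 1 array. GBP1 read 5.39, 5.21 and 5.19 on the shTIGD1 arrays, against 5.80, 5.56 and 5.45 on the shControl arrays, and missed the threshold (-0.34, adjusted p = 0.0525). LGALS3BP, a secreted glycoprotein, fell by 0.15 (adjusted p = 0.0224), passed in 1 of the 6 fits without 1 array, and turned to 0.03 and 0.19 under hybridization and poly-A control scaling. Under the latter it passed as higher (limma adjusted p = 0.0157). PARP9 (0.04), its partner DTX3L (-0.10), PARP14 (-0.09) and IFI35 (0.11) did not pass, although their groups did not overlap. EPSTI1, with 4.24, 4.21 and 3.91 on the shTIGD1 arrays and 3.95, 3.76 and 3.99 on the shControl arrays, overlapped and was near background in both groups. In all, 8 of the 54 genes were near background in both groups, and 0 of those passed.

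Other probe sets gave a check within the array for 33 of the 54 genes. Of the 13 members past the test that had several, 10 had a further probe set past in the same direction after adjustment over all probe sets, and 0 had one past in the opposite direction. The 3 without such a second probe set were IFIT2 (second at -0.11, near background in both groups), IFIT5 and XAF1, whose 6 others were all near background. With adjustment over all probe sets, the brightest probe sets of XAF1, ISG15, IFIT1 and IFI6 missed the threshold (limma adjusted p = 0.0502 to 0.052). That left 10 lower and 9 higher members by the brightest probe set. IFI27 had a second at 0.69 and IFITM1 one at 0.92. A pair of further BST2 probe sets passed as higher, but their shControl means of 3.59 and 4.47 were near background, so that the size of their difference was not measured. The last BST2 probe set was near background in both groups and did not pass. For IRF1, 3 of 4 probe sets fell, by 0.44 to 0.55, and for RNF213 4 of 5 fell, by 0.20 to 0.52. The dimmest RNF213 probe set that fell was near background in both groups, with means of 4.66 (shTIGD1) and 4.91 (shControl). IFNAR2 had probe sets at -0.47 and -0.37 that passed and one at -0.01 that did not. In 5 genes the brightest probe set did not pass but another did, which were IFNAR1 (0.17), PLSCR1 (0.15), DTX3L (0.19), PARP14 (-0.18) and GBP1 (-0.45). For DTX3L that probe set went against the brightest (-0.10). For GBP1 it had a shTIGD1 mean of 4.78, near background.

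**Figure D4:**
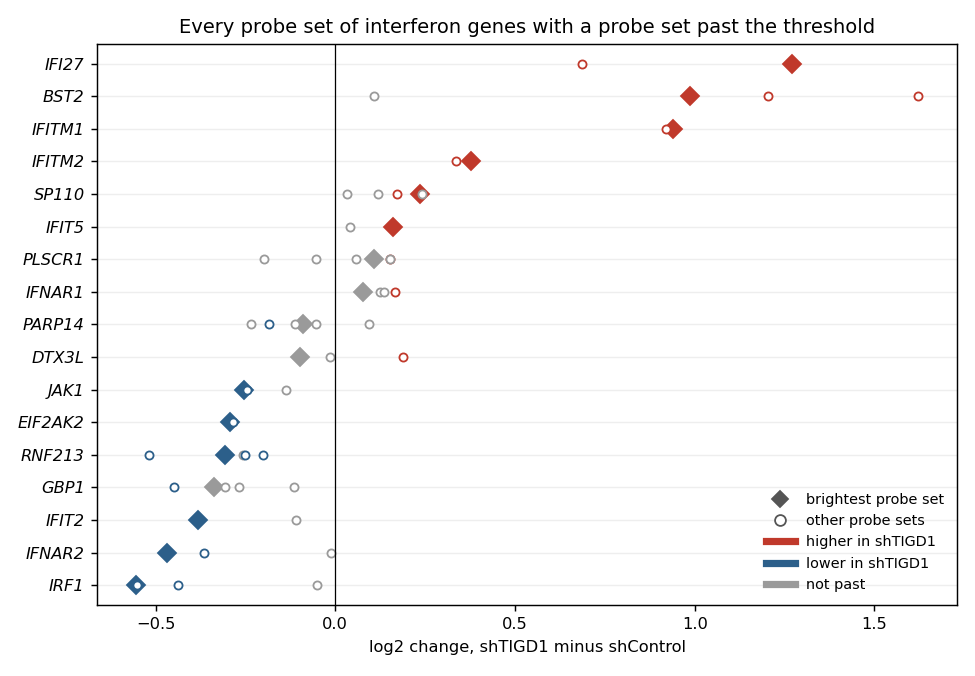
Log2 change, shTIGD1 minus shControl, of every probe set of the interferon genes that have several and at least 1 past the limma threshold; diamonds are the brightest probe set of a gene and open circles the others, in red where higher, blue where lower and grey where not past. No gene has probe sets past the threshold on both sides of 0.

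Promoter motifs were found in genes of either direction. Windows of 300 bases, 250 before to 50 after each listed start, were found for 44 of the 54 genes; IFNAR2, IRF7, DHX58, IFITM2, IFIT2, OAS2, OASL, MX2, USP18 and GBP2 had none. The paired GAAA motif, on either strand, was present in a window of 28 of the 44 (63.6%), against 4.38% of the 27305 genes with a window. It was found in 7 of 8 higher, 6 of 11 lower and 15 of 25 members not past the test. TTCNNNGAA, the same on both strands, was present for 15 of the 44 (34.1%), against 9.38% of all genes. It was found in 5 of the 8 higher genes (IFI27, BST2, IFITM1, SP110 and GBP3), in 1 of the 11 lower genes (IRF1) and in 9 of the 25 others. The motifs overlapped in 6 of the 61 windows of members, which were those of BST2, IFITM1, IFI27 (in 2 windows) and, of the members not past the test, MX1 and EPSTI1. These counts describe letters in the windows, and no test of the difference between directions was made.

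Genes of the pathway outside the set were higher about as often as any gene. Of 90 in 6 lists, 83 were measured, 9 were higher (10.8%, against 9.79% of all genes) and 18 lower (21.7%, against 14% of all genes). The counts by list are of few genes and stand against the same shares. Among other ligands and receptors 0 of 10 rose and 2 fell, the chains of the interferon gamma receptor IFNGR1 (-0.36, limma adjusted p = 0.00129) and IFNGR2 (-0.23, adjusted p = 0.0048). Of 16 genes of nucleic acid sensing 0 rose and 5 fell, led by the kinase gene IKBKE (-0.37), MAVS, the mitochondrial adaptor of the RNA sensors (-0.30), and TICAM1, the adaptor of TLR3 (-0.28). The RNA sensor RIGI did not pass (0.09, adjusted p = 0.221). Of 8 other kinases and factors, JAK2 rose (0.19) and IRF3, which drives interferon beta, fell (-0.15). Of 9 brakes on the pathway, 1 rose, the phosphatase PTPN11 (0.23), and 3 fell, including PIAS4 (-0.22) and PTPN2 (-0.21). All falls named here other than IFNGR1 and IKBKE were smaller than 0.33 and are positive under poly-A control scaling.

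Of 24 further interferon-stimulated genes 6 were higher and 4 lower, where 9.79% of all genes were higher and 14% lower. TNFSF10, the death ligand TRAIL, rose by 0.50 (limma adjusted p = 0.0126), TMEM140 by 0.42 and LAMP3 by 0.34, the last near background in both groups. Of 16 targets of interferon gamma 1 rose, the immunoproteasome subunit PSMB8 (0.24), and 3 fell. The adhesion molecule gene ICAM1, which is also a target of NF-kB, fell by 0.53 (adjusted p = 0.00396), and CXCL9 was near background in both groups.

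**Figure D5:**
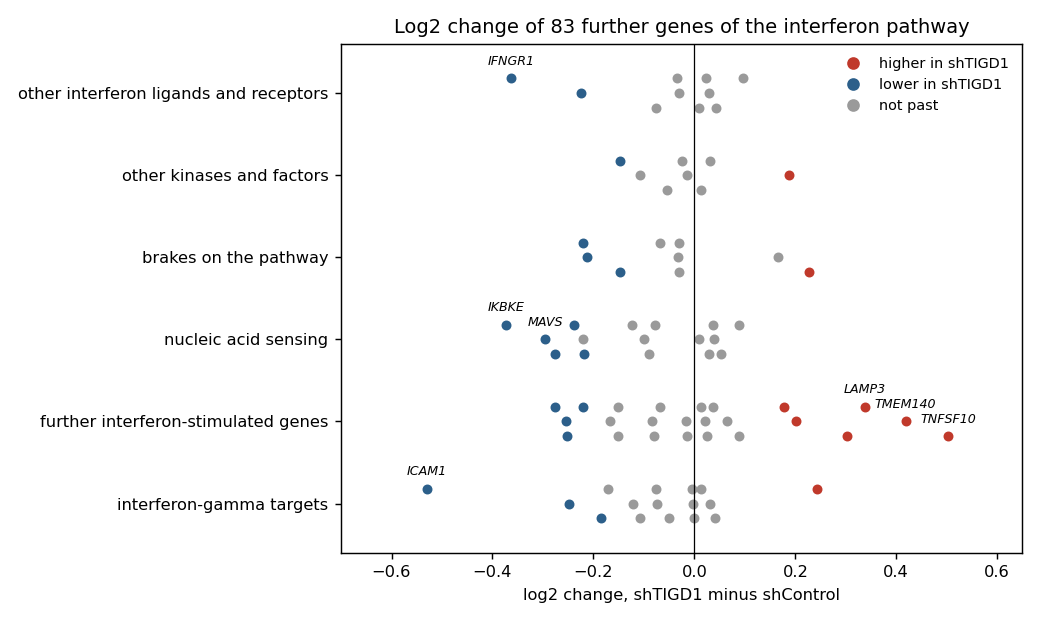
Log2 change, shTIGD1 minus shControl, of the 83 measured pathway genes outside the set, 1 point per gene (vertical offsets within a list only separate points); red and blue mark genes past the limma threshold as higher and lower. Nucleic acid sensing shows 5 lower and 0 higher genes, and further interferon-stimulated genes 6 higher and 4 lower.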

How the data were processed

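Total RNA of 6 A549 samples was labelled with biotin and hybridized to 1-colour arrays, per the labels' protocols. The deposited values are log2 signals for 49395 probe sets, for which the submitters' processing notes name RMA and GCOS as the authors' software, without versions. That the logarithm is to base 2 was inferred from the spread of the numbers. RMA makes the distributions of arrays alike, which removes a shift common to most genes. Of the probe sets, 45336 had 1 gene symbol, 1275 had several, 2682 had none and 102 were controls. Near-background levels are judged by signal only, and the number of arrays limits precision.

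The comparison used limma 3.58.1 (lmFit, then eBayes; R 4.3.3), 3 arrays against 3, two-sided, without trend, with Benjamini-Hochberg adjustment over 18265 genes. The script was tested on simulated data. Tables and figures were made with Python 3.11.15, pandas 2.3.3 and matplotlib 3.10.9. The members and lists were chosen with earlier results of these data known. All members could be named, with array values for those past the threshold with a log2 change of at least 0.3 either way and the largest change of each role, and up to 3 genes past the threshold from each list. Array values of IFNAR1, EIF2AK2 and IFIT5 were added after they were seen. Alternatives covered the choice of probe set, scaling, filters, the variance model, array weights, a replicate block, a 1.2-fold null hypothesis and leaving out each array.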

Additional observations from a re-analysis of the deposited data

How the results depend on the processing

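Of 18265 genes, 4345 passed. With the second brightest probe set, which 11837 genes had, the count was 2780. Over all 18265 genes it was 7306 and 14084 under hybridization and poly-A control scaling, 262 against a 1.2-fold change, and 2742 to 3389 without 1 array. The higher members numbered 9, and 23, 37 and 4 under hybridization control scaling, poly-A control scaling and the 1.2-fold null hypothesis, with 6 to 9 without 1 array; of all genes 37.4%, 76.5% and 0.958% were higher under the same 3. The lower members numbered 14, and 4, 6, 1 and 1 under the second brightest probe set (33 members), the 2 scalings and the 1.2-fold null hypothesis, with 8 to 10 without 1 array; of all genes 10.3%, 2.58%, 0.652% and 0.476% were lower under the same 4. Control scaling adds 1 value to all genes of an array and fewer genes have a second probe set; the other causes were not tested. TIGD1 turned to 0.12 (limma adjusted p = 0.108) under hybridization and 0.28 (limma adjusted p = 0.00227) under poly-A control scaling. Of the 17 members chosen by rule for array values, ISG15 (0.15) and RNF213 (0.026) also turned under the latter. Outside those 17, TYK2, IFI6 and LGALS3BP turned there and passed as higher. With the replicate number as a block, 2388 genes, 6 higher and 10 lower members passed; deviations of same-numbered arrays correlated at -0.03, -0.13 and -0.09, so the numbers were not taken as pairs. Of 329 repeats over the 17 members chosen by rule for array values (IFNAR1, EIF2AK2 and IFIT5 not included), 290 kept direction and side of the threshold, 28 lost the call, 9 gained one and 2 reversed. The rule picked large changes, and IFIH1, EPSTI1 and GBP1 had not passed to begin with. The counts thus do not describe the called members with smaller changes. Among the 17 members, signals near background limit BST2 and EPSTI1, and the GBP1 means of 5.27 (shTIGD1) and 5.60 (shControl) were little above that level.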
